A study of Mus musculus with 6 samples.

Results

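The protein tyrosine phosphatases (PTPs) described here are 40 of the 19505 genes measured in sorted mouse regulatory T (Treg) cells. They were taken by symbol: every *Ptpn*, *Ptpr* and *Ptp4a* gene, together with *Ptprcap*, which encodes a transmembrane partner of CD45, and *Acp1*, the low molecular weight phosphatase. Each gene was represented by 1 probe set. The same rule is met by 43 genes of RefSeq, and *Ptp4a1*, *Ptprt* and *Ptprv* were not analysed here because no probe set used carried their names.

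The study asked how loss of both neddylation E3 ligase RING subunits, Rbx1 and Sag (gene *Rnf7*), alters the transcriptome of Treg cells. The cells were CD4+YFP+ cells sorted from peripheral lymph nodes and spleens of 8 to 12 week old female mice, and RNA of 2 to 3 mice was pooled for an array. Controls were Foxp3 Cre/wt mice, and Rbx1&Sag-deficient cells came from females with the same Foxp3 Cre/wt alleles that were also homozygous for floxed Rbx1 (fl/fl) and floxed Sag (fl/fl), with 3 Clariom S arrays in each group. Both groups therefore carry the Foxp3 YFP-Cre knock-in, which is X-linked, so that in these females only the Treg cells using the Cre allele are YFP+ and Treg cells without Cre remain in the host, a setting the study chose because the mice stay free of inflammation. The files hold log2 signals, in which 1 unit is a 2-fold difference. The arrays are pools, and nothing says whether the pools of a group were collected separately, so p-values measure the spread between these arrays.

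Tyrosine phosphorylation carries the first signals from the T cell receptor and from cytokine receptors, and PTPs remove it. Receptor type PTPs cross the plasma membrane, whereas non-receptor PTPs are directed within the cell by SH2 domains, PEST motifs, FERM and PDZ domains or membrane anchors. In T cells, some PTPs promote receptor signalling by removing an inhibitory phosphate from Lck, and others end signalling by acting on Lck, Zap70, JAK kinases or MAP kinases.

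The targeted genes were read first as a check of the labels. *Rbx1* read 9.26, 10.08 and 9.80 on control arrays and 5.04, 5.53 and 5.84 on Rbx1&Sag-deficient arrays, and it fell by 4.24 on the log2 scale (adjusted p = 0.000237, limma). *Rnf7* read 11.47, 11.29 and 10.93 in controls and 10.94, 11.39 and 9.65 in deficient cells, a log2 difference of -0.57 (adjusted p = 0.379); whether its probe set lies within the deleted part is not known, so it checks nothing. All 9 measured markers of T and Treg cells stood above the array median on every array, while *Foxp3* itself was not measured here, and 5 of them fell. *Tnfrsf18* (-1.81) and *Ikzf2* (-1.54), which mark Treg cells, were also called after quantile normalization (adjusted p = 0.0339 and 0.0276), whereas *Cd4*, *Cd3d* and *Cd3g* were not. The sample titles carry the word "Muscle", but 5 of 8 skeletal muscle markers were dim in both groups and none was called. Bright genes as a whole stood lower in deficient arrays. The upper quartile of all probe sets lay between 7.68 and 7.81 on control arrays and between 6.93 and 7.37 on deficient arrays. Their median lay between 4.0 and 4.11 on control arrays and between 4.13 and 4.32 on deficient arrays. The median log2 difference was 0.04 over all genes and -0.40 for genes brighter than the median, which after quantile normalization had a median of 0.01.

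More PTP genes fell than rose in Rbx1&Sag-deficient Treg cells. Of the 40 genes, 12 fell and 2 rose, and 10 of the 12 falls were at least 2-fold. The falls included the receptor type *Ptprj* and *Ptprs*, the CD45 partner *Ptprcap*, the MAP kinase phosphatases *Ptpn7* and *Ptpn5*, both SH2 domain phosphatases, *Ptpn1*, *Ptpn2*, *Ptpn22*, *Ptpn13* and *Ptp4a2*. The rises were *Ptpn12* and *Ptp4a3*. *Ptprc*, which encodes CD45, differed by -0.04 (95% interval -0.50 to 0.42). In sorted bulk cells, fewer cells of a kind and less RNA per cell cannot be told apart.

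Among all genes, 9.49% were lower and 2.70% were higher at an adjusted p below 0.05 by limma, with p-values adjusted over all genes. Among all genes brighter than the median, 20.0% were lower and 3.32% were higher, and of the 22 PTP genes in that range 12 fell and 2 rose. Their median log2 difference was -0.95, with 20 of 22 negative; after quantile or cyclic loess normalization, which remove the shift of bright genes, it was -0.53 with 14 negative, and 14 were negative after centring on brighter genes too. Over all 40 genes the median was -0.08, against 0.04 over all genes, and it turned to 0.52 when arrays were centred on the brighter genes, a scaling that moved the median of all genes to 0.64. After quantile normalization 5 PTP genes were lower, against 3.76% of all genes, and 2 were higher, against 2.74%. After cyclic loess normalization the same 5 and the same 2 were called, against 4.49% and 3.24%. These 5 falls were *Ptprj*, *Ptpn13*, *Ptpn7*, *Ptprs* and *Ptprcap*, and the 2 rises were *Ptpn12* and *Ptp4a3*.

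**Figure D1:**
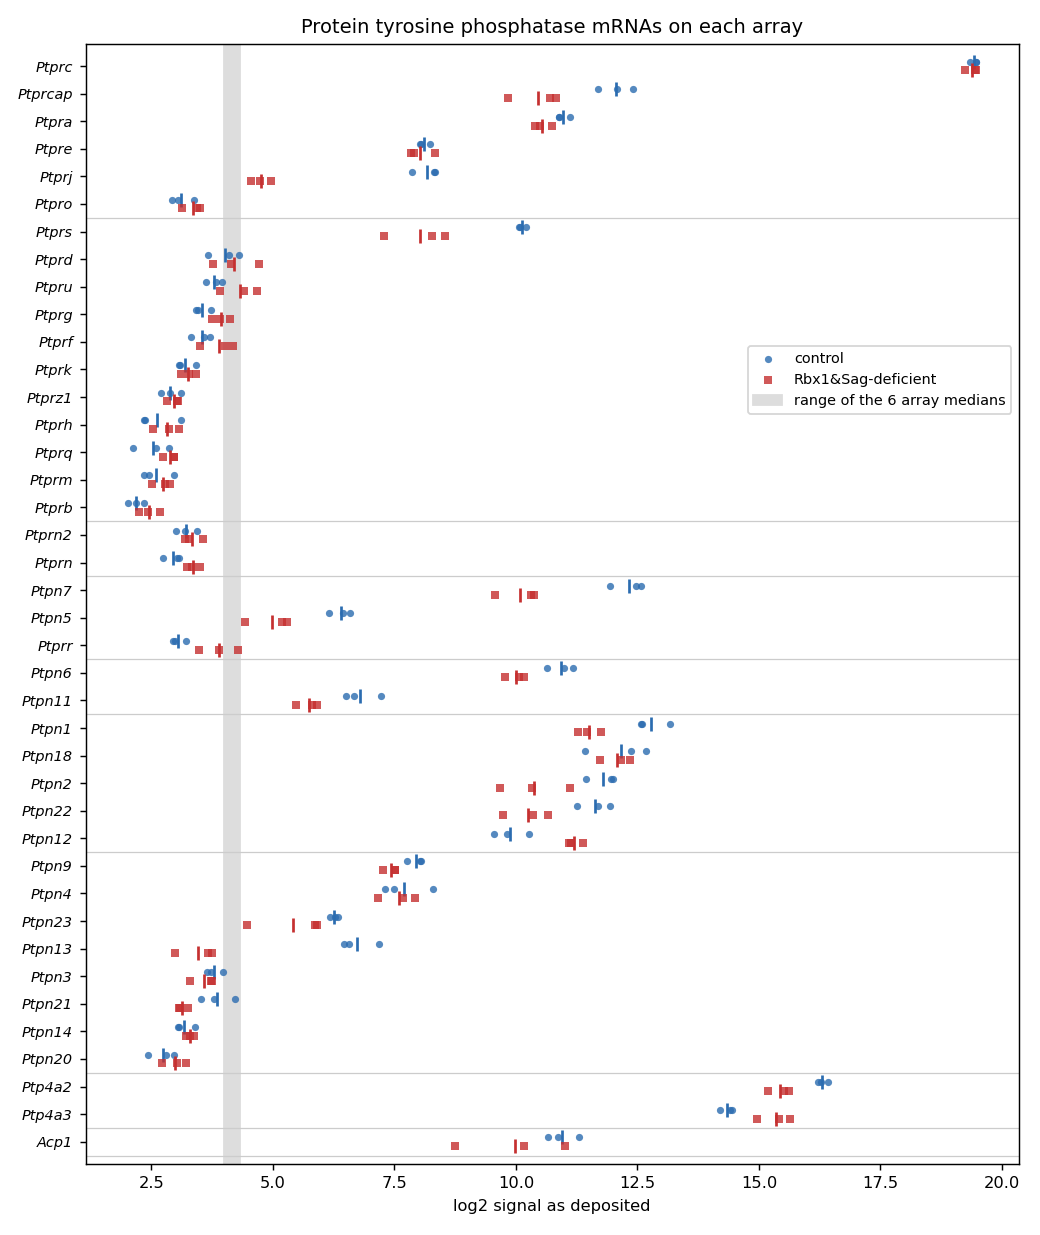
Log2 signal as deposited (x axis) of the 40 PTP genes (y axis, in blocks by role: leukocyte receptors, adhesion and neural receptors, granule receptors, kinase interaction motif, SH2, PEST and ER-anchored, FERM/PDZ and related, PRL, low molecular weight) on the 3 control arrays (circles) and the 3 Rbx1&Sag-deficient arrays (squares), with group means as vertical ticks. The 16 genes dim in both groups crowd at or left of the grey band, the range of the array medians, and the 14 called genes show no overlap between groups.

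The methods' t-test, an unpaired test at an unadjusted P below 0.05 with a fold above 2, called 10 PTP genes lower and 1 higher, against 8.24% and 1.95% of all genes. After Benjamini-Hochberg adjustment the same test called *Ptprj* alone of the PTP genes, and 23 lower and 7 higher over all genes. In 16 PTP genes every deficient array lay below every control array, against 19.7% of all genes, and in 5 every deficient array lay above, against 15.2%. Of these 21 genes, 7 were not called, namely *Ptpn9*, *Ptpn21*, *Ptpn23* and *Ptpra* among those below and *Ptprg*, *Ptprn* and *Ptprr* among those above. The higher share is thus near its background.

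Of the receptor type PTPs of leukocytes, 6 genes were measured, of which 2 fell. *Ptprj* encodes CD148, a receptor PTP that can act on Src family kinases. It read 7.87, 8.32 and 8.33 on control arrays and 4.73, 4.97 and 4.55 on Rbx1&Sag-deficient arrays, so that the nearest arrays of both groups stood 2.90 apart. The gene fell by 3.42 (SE 0.23, adjusted p = 0.000222), a ratio of 10.7 between the measured signals, and was called under every one of the 17 alternatives run, with adjusted p between 5.67e-05 and 0.0426. Its deficient mean of 4.75 lies close to the array medians, and no detection call was used to tell how much of that signal is background. *Ptprcap* read 12.09, 11.69 and 12.40 in controls and 10.71, 10.82 and 9.83 in deficient cells. All 3 deficient arrays lay below the controls, deficient replicate 3 furthest, and the gene fell by 1.61 (SE 0.32, adjusted p = 0.0141). It was not called without control replicate 1 (adjusted p = 0.0587) or control replicate 3 (adjusted p = 0.069).

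CD45, the abundant phosphatase that removes the inhibitory phosphate of Lck, behaved otherwise at the mRNA level. *Ptprc* read 19.47, 19.34 and 19.46 in controls and 19.45, 19.24 and 19.47 in deficient cells, and the groups overlapped, with deficient replicate 2 the lowest of the 6 arrays. These values lie near the top of the scale, where the highest signal of any probe set was 19.59 to 19.93 on an array. Whether the signal still follows the amount of RNA there was not tested. *Ptpra*, which encodes an activator of Src family kinases, had a log2 difference of -0.42 (adjusted p = 0.225) with no overlap, and *Ptpre* one of -0.08 (95% interval -0.59 to 0.43). After quantile and cyclic loess normalization the differences of *Ptprc*, *Ptpra* and *Ptpre* turned positive, between 0.01 and 0.51, with none called. *Ptpro* was dim in both groups. A gene is called dim in a group where its mean lies below the median of all probe sets on each array of that group.

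The adhesion and neural receptor PTPs were 11 measured genes, of which 8 were dim in both groups and 1 fell. *Ptprs* encodes PTP sigma, a receptor for heparan and chondroitin sulfate proteoglycans known for its part in axon growth. It read 10.09, 10.07 and 10.20 in controls, within 0.13 of each other, and 8.55, 8.27 and 7.29 in deficient cells. The deficient arrays all lay lower and were wider apart (SD 0.66 against 0.07), and the gene fell by 2.08 (SE 0.32, adjusted p = 0.00554), a 4.24-fold change. Of the others, *Ptprd* and *Ptpru* crossed the array median on some arrays and had log2 differences of 0.19 and 0.54, with neither called. Both granule PTPs, *Ptprn* and *Ptprn2*, known from neuroendocrine cells, were dim in both groups.

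The phosphatases with a kinase interaction motif, which dock onto the MAP kinases ERK and p38, comprise *Ptpn7*, *Ptpn5* and *Ptprr*. *Ptpn7* encodes HePTP, the form of blood cells. It read 11.93, 12.48 and 12.57 in controls and 10.37, 10.31 and 9.58 in deficient cells, and every deficient array lay at least 1.56 below every control. The gene fell by 2.24 (SE 0.29, adjusted p = 0.00261), or 4.72-fold. *Ptpn5*, whose product STEP is best known from neurons, read 6.44, 6.59 and 6.15 in controls and 5.30, 4.43 and 5.19 in deficient cells. It fell by 1.42 (SE 0.28, adjusted p = 0.0143), but was not called after quantile normalization (-1.05, adjusted p = 0.071) or without control replicate 1 (adjusted p = 0.0601) or 2 (adjusted p = 0.076). *Ptprr* stood the other way at low signal, with 3.21, 2.94 and 2.98 in controls and 4.29, 3.89 and 3.48 in deficient cells. Its groups did not overlap, and the log2 difference of 0.84 missed the threshold (adjusted p = 0.0624).

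*Ptpn13* encodes a large phosphatase with FERM and PDZ domains. It read 6.47, 6.57 and 7.18 in controls and 2.99, 3.67 and 3.75 in deficient cells, so that a signal above the array medians in controls was below them in all deficient arrays. The gene fell by 3.27 (SE 0.29, adjusted p = 0.000565), a ratio of 9.65 between the measured signals, with the same limit on the lower signal as in *Ptprj*. Of the 8 genes with FERM, PDZ, CRAL-TRIO or Bro1 domains it alone was called. *Ptpn3*, *Ptpn14*, *Ptpn20* and *Ptpn21* were dim in both groups. *Ptpn4*, another FERM and PDZ phosphatase, had a log2 difference of -0.11 (95% interval -0.83 to 0.60), *Ptpn9* one of -0.51 (adjusted p = 0.143) and *Ptpn23*, which acts in endosomal sorting, one of -0.85 (adjusted p = 0.157). The *Ptpn23* difference rested mostly on deficient replicate 3, which read 4.47 beside 5.90 and 5.87 on the other deficient arrays. *Ptpn4* and *Ptpn9* turned positive after quantile normalization, at 0.50 and 0.07, with neither called.

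*Ptprj*, *Ptpn13*, *Ptpn7* and *Ptprs* had the largest falls and were called under quantile and cyclic loess normalization and with any single array left out. For them the window from 250 bases before to 50 bases after the start of a RefSeq transcript is shown (GRCm38.p6, read 5′ to 3′ on the gene's strand, the most upstream start where a gene has several), so that the letters at genes that fell together can be compared. Capitals mark the 6 motifs searched on both strands: an ETS motif CCGGAAG, a RUNX motif TGTGGT, an AP-1 motif TGANTCA, a CRE TGACGTCA, a forkhead motif GTAAACA and a GC box GGGCGG.
Ptprj, chr2:90580546-90580845, minus strand: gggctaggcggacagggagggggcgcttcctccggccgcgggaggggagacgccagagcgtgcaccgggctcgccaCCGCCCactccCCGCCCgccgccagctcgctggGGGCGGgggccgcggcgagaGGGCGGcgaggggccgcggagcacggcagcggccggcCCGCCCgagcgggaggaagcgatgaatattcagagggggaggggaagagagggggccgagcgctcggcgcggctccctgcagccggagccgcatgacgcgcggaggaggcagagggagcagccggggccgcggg
Ptpn13, chr5:103424942-103425241, plus strand: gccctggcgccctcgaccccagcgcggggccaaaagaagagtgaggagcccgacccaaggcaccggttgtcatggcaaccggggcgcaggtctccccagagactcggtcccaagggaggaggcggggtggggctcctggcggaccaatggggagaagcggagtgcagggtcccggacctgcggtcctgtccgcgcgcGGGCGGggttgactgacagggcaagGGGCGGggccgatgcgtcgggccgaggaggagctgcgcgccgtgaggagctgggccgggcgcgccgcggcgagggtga
Ptpn7, chr1:135132450-135132749, plus strand: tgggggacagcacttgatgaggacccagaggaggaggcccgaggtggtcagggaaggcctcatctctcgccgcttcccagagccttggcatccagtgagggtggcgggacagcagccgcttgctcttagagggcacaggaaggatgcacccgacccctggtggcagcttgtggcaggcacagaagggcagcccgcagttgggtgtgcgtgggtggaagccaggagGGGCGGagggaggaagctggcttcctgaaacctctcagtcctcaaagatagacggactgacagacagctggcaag
Ptprs, chr17:56476431-56476730, minus strand: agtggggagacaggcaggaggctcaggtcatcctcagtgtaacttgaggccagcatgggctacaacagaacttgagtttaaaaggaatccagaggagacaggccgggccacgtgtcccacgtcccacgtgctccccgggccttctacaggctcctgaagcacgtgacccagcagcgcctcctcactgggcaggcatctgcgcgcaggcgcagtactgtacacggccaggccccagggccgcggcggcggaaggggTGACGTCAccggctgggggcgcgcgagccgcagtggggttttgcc
The *Ptprj* window is 79.3% G and C and holds 5 GC boxes, the *Ptpn13* window holds 2 and the *Ptpn7* window 1, while the *Ptprs* window holds none and has 1 CRE within the 50 bases after the start. No marked run overlaps another. Of 32851 windows of all genes 35.7% hold a GC box and 1.79% a CRE. Of 47 windows belonging to 33 PTP genes, 25 hold a GC box, 3 a CRE, 5 the ETS letters (8.86% of all windows), 6 the RUNX letters (16.8%), 4 the forkhead letters (3.65%) and 2 the AP-1 letters (7.81%). Among the 15 windows of genes that fell, 9 hold a GC box, 2 a CRE, 2 the ETS and 2 the RUNX letters, and none holds the forkhead or AP-1 letters. A match is a description of these letters only. The other windows of called genes are not shown, and none was used for *Ptpn12*, *Ptp4a3*, *Ptprcap* and *Ptpn2*.

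Both phosphatases with SH2 domains, which are recruited to phosphorylated inhibitory receptors and adaptors, fell in the deposited values. *Ptpn6*, encoding SHP-1, read 10.98, 11.17 and 10.64 in controls and 10.06, 9.78 and 10.16 in deficient cells. *Ptpn11*, encoding SHP-2, which also promotes signalling to ERK, read 6.66, 7.22 and 6.50 in controls and 5.81, 5.48 and 5.91 in deficient cells. In neither gene did the groups overlap, though the nearest arrays of *Ptpn6* were 0.48 apart. *Ptpn6* fell by 0.93 (SE 0.23, adjusted p = 0.0343) and *Ptpn11* by 1.06 (SE 0.26, adjusted p = 0.031). Neither was called after quantile normalization, with -0.44 (adjusted p = 0.374) and -0.54 (adjusted p = 0.244), and neither was called without any one control array or without deficient replicate 1 or 2, with adjusted p between 0.0502 and 0.15.

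The 5 PEST and ER-anchored phosphatases included 3 genes that fell and 1 that rose. *Ptpn22* encodes a PEST phosphatase that acts on Lck and Zap70. It read 11.25, 11.69 and 11.94 in controls and 10.35, 10.66 and 9.73 in deficient cells, without overlap. It fell by 1.38 (SE 0.30, adjusted p = 0.0201). *Ptpn2*, whose product restrains JAK and STAT signalling, read 11.96, 12.00 and 11.44 in controls and 10.33, 11.12 and 9.67 in deficient cells, the highest deficient array lying 0.32 below the lowest control. It fell by 1.43 (SE 0.36, adjusted p = 0.035). *Ptpn1*, encoding the ER-anchored PTP1B that acts on JAK2, TYK2 and the insulin receptor, read 12.58, 13.17 and 12.60 in controls and 11.47, 11.28 and 11.76 in deficient cells. All deficient arrays were lower, and the gene fell by 1.28 (SE 0.25, adjusted p = 0.0141).

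None of these 3 falls was called after quantile normalization, where the differences were -0.91 for *Ptpn22*, -0.97 for *Ptpn2* and -0.87 for *Ptpn1* (adjusted p = 0.0654, 0.0808 and 0.123). Without control replicate 2 or 3, *Ptpn22* and *Ptpn1* were not called (adjusted p from 0.0518 to 0.0909), and *Ptpn2* was called only without deficient replicate 2. *Ptpn18*, the remaining PEST phosphatase, read 12.36, 11.42 and 12.68 in controls and 12.17, 12.34 and 11.73 in deficient cells, 2 fully overlapping groups. Its difference was -0.07 (95% interval -0.84 to 0.69), and 0.37 after quantile normalization.

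*Ptpn12* was the exception in this class. Its product PTP-PEST acts on adhesion and cytoskeletal proteins such as p130Cas. The gene read 9.81, 10.27 and 9.55 in controls and 11.13, 11.38 and 11.10 in deficient cells, every deficient array lying above every control. *Ptpn12* rose by 1.33 (SE 0.25, adjusted p = 0.0116), or 2.51-fold, and the difference was larger, 1.81 and 1.84, after quantile and cyclic loess normalization (adjusted p = 0.00472 and 0.00256). It was not called without control replicate 1 (adjusted p = 0.0531) or control replicate 3 (adjusted p = 0.0614).

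The PRL phosphatases, small farnesylated proteins of membranes, were represented by a pair of genes that moved in opposite directions. *Ptp4a2* read 16.21, 16.28 and 16.43 in controls and 15.61, 15.51 and 15.18 in deficient cells. *Ptp4a3* read 14.41, 14.19 and 14.45 in controls and 15.42, 14.97 and 15.64 in deficient cells. Neither gene showed overlap between groups. *Ptp4a2* fell by 0.87 (SE 0.22, adjusted p = 0.0338) and *Ptp4a3* rose by 0.99 (SE 0.24, adjusted p = 0.0308). *Ptp4a3* was also called after quantile normalization (1.38, adjusted p = 0.0338), whereas *Ptp4a2* was not (-0.53, adjusted p = 0.149). Leaving out single arrays ended both calls in most cases: *Ptp4a2* was called only without deficient replicate 1 or 2, and *Ptp4a3* only without deficient replicate 2, with adjusted p up to 0.131 and 0.133.

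A ratio of 2 genes within each array is free of a constant shift of the whole array, but not of one that varies with signal. For this, 2 pairs were formed after their values were seen. The log2 ratio of *Ptp4a3* to *Ptp4a2* was -1.80, -2.09 and -1.98 on control arrays and -0.19, -0.54 and 0.46 on deficient arrays. The ratio changed by 1.87 on average. The log2 ratio of *Ptpn12* to *Ptpn22* was -1.44, -1.42 and -2.39 in controls and 0.78, 0.72 and 1.37 in deficient cells, a change of 2.71. Each pair joins a gene called higher with one called lower, so the ratios are a description and were given no test.

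**Figure D2:**
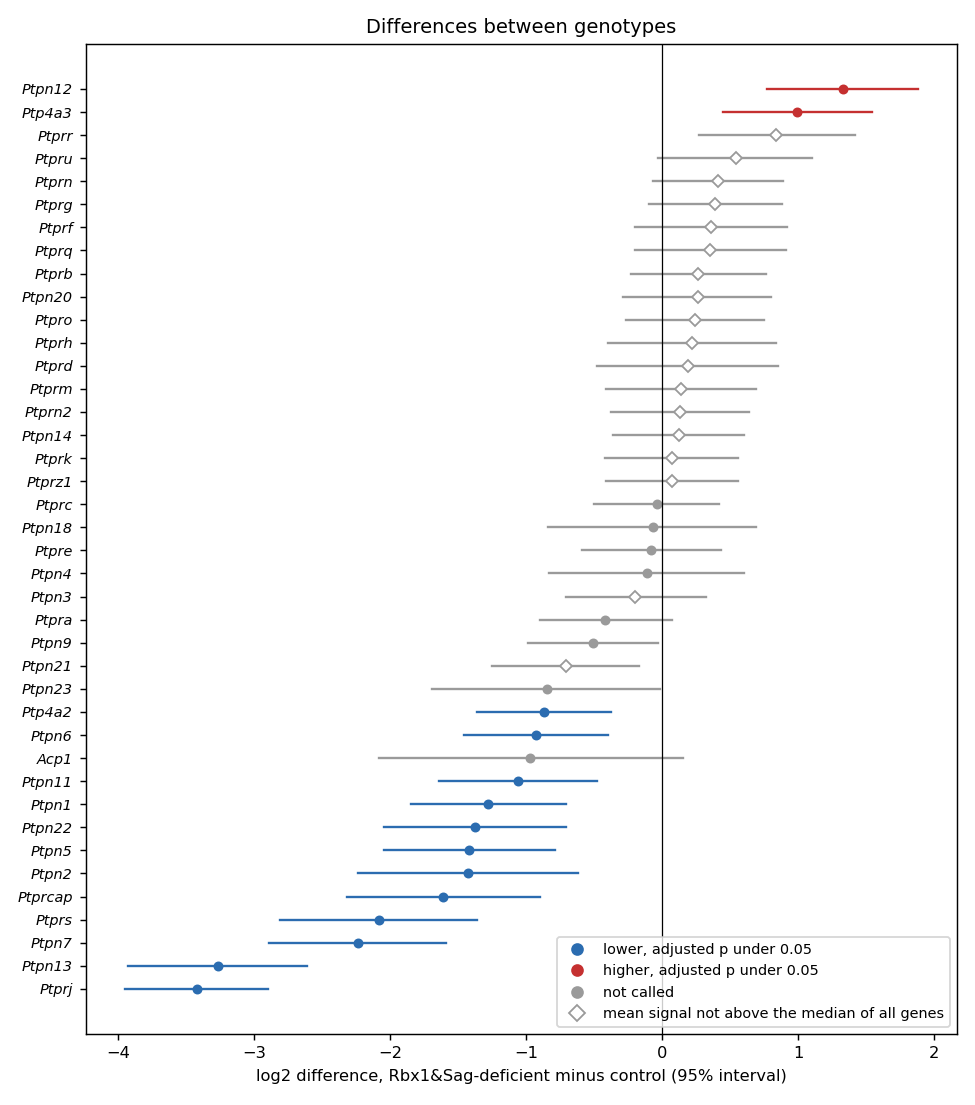
Log2 difference of the 40 PTP genes, Rbx1&Sag-deficient minus control (x axis, with 95% limma intervals as lines), in order of size, 3 arrays in each group. The 12 genes that fell (blue) run from -3.42 in *Ptprj* to -0.87 in *Ptp4a2* and the 2 that rose (red) stand at 1.33 and 0.99; grey genes were not called and open symbols are not above the median signal of all genes.

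The remaining gene, *Acp1*, encodes the low molecular weight PTP. It read 10.67, 11.29 and 10.87 in controls and 11.02, 10.17 and 8.74 in deficient cells. The groups overlapped, deficient replicate 3 standing far below the others, and the difference of -0.97 was not called (adjusted p = 0.224). Deficient replicate 3 also held the lowest value of 7 of the 12 genes that fell. Its upper quartile of all probe sets, 6.93, was the lowest of the 6 arrays. Without that array 10 PTP genes fell and 2 rose, the latter being *Ptpn12* and *Ptprr*, against 1613 lower and 511 higher over all genes.

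In total 16 of the 40 genes were dim in both groups, 12 of them among the 19 *Ptpr* genes. Their values ran from 2.02 to 4.29, their log2 differences ran from -0.71 to 0.84, 14 were positive, and none was called. Genes in this range of signal stood slightly higher in deficient arrays in general, with a median difference of all genes of 0.18 to 0.25 at a mean signal between 2 and 4. By class, 8 of 17 *Ptpn* genes and 2 of 19 *Ptpr* genes fell.

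**Figure D3:**
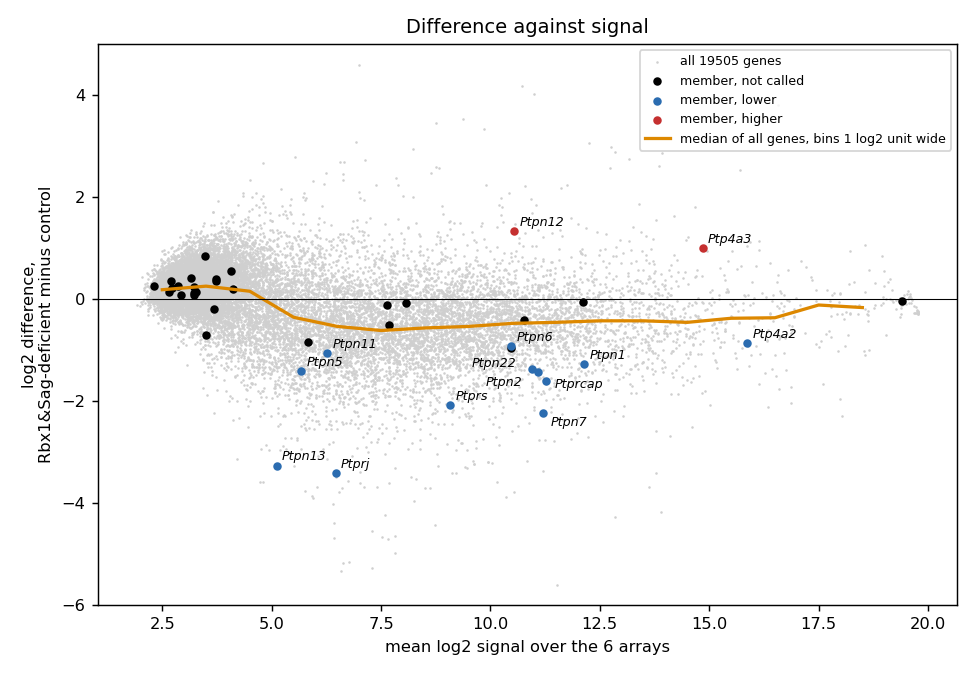
Log2 difference, Rbx1&Sag-deficient minus control (y axis), against the mean log2 signal over the 6 arrays (x axis) for all 19505 genes (grey, 2 genes lie outside the plotted range), with PTP genes in black (not called), blue (lower) and red (higher) and the median of all genes as a line. The line passes below 0 at a mean signal above 5, and *Ptprj*, *Ptpn13*, *Ptprs* and *Ptpn7* lie far below it while *Ptpn12* and *Ptp4a3* lie above it.

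The dependence on scaling separated the called genes into 2 sets. The 5 falls and 2 rises called under quantile and cyclic loess normalization had log2 differences there from -3.12 to -1.11 and from 1.34 to 1.84. The other 7 falls, *Ptp4a2*, *Ptpn1*, *Ptpn2*, *Ptpn5*, *Ptpn6*, *Ptpn11* and *Ptpn22*, kept a negative difference, from -1.08 to -0.41, and lost the call. Which scaling is nearer to the RNA content of the cells was not tested.

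**Figure D4:**
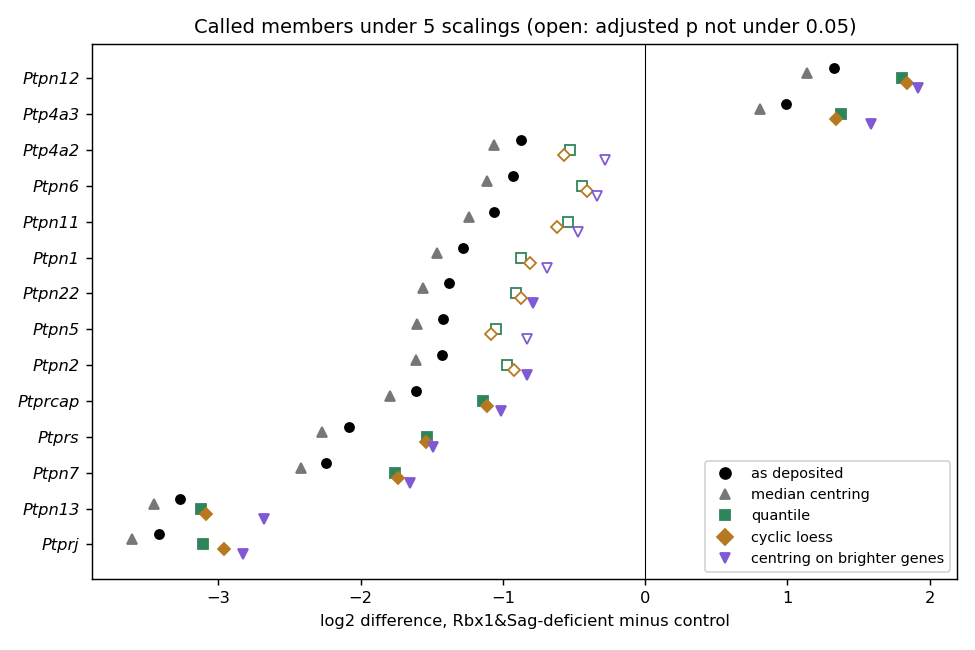
Log2 difference, Rbx1&Sag-deficient minus control (x axis), of the 14 called PTP genes (y axis) under 5 scalings of the same 6 arrays, with filled symbols for an adjusted p below 0.05 and open symbols otherwise. All 14 genes keep their direction, and 7 falls are open after quantile and cyclic loess normalization.

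Genes that work with these phosphatases were read from 4 lists, given as counts beside the background above. Of 38 kinases, adaptors, receptor chains and transcription factors on which they act, 4 were lower and none higher in the deposited values. The median difference of the list was -0.33. The share lower was 10.5%, near the 9.49% of all genes and below the 20.0% of genes brighter than the median. The 4 falls were the coreceptor *Cd4* (-1.07), the JAK family kinase *Tyk2* (-1.37) and the receptor chains *Cd3d* (-0.93) and *Cd3g* (-0.74). None of the 4 was called after quantile or cyclic loess normalization, where *Stat5a* and *Stat5b* were called higher instead (1.55 and 1.05 with cyclic loess) and the median turned to 0.03 and 0.05.

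Of 26 receptors and adaptors known to bind SHP-1 or SHP-2 or to belong to their pathways, 5 fell and 1 rose. These are 19.2% and 3.85%, against 9.49% and 2.70% of all genes. In this list 13 genes were dim in both groups, and the median difference was -0.06. *Pdcd1*, encoding PD-1, read 10.41, 10.16 and 10.52 in controls and 6.32, 7.82 and 5.84 in deficient cells, far apart. It fell by 3.70 (adjusted p = 0.00191). *Sit1*, a transmembrane adaptor that binds SHP-2, fell by 2.36 (adjusted p = 0.0107), and *Btla*, another inhibitory receptor, by 1.29 (adjusted p = 0.0136). The adaptors *Dok1* (-1.28, adjusted p = 0.0332) and *Dok2* (-1.02, adjusted p = 0.0472) were the other falls. *Irs2*, the insulin receptor substrate, rose by 3.52 (adjusted p = 0.00467). *Pdcd1*, *Sit1*, *Dok1* and *Irs2* were also called after quantile normalization, and *Btla* (-0.79, adjusted p = 0.13) and *Dok2* were not.

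Among 19 other genes listed with phosphatases, not all of which act on tyrosine, 4 fell and none rose. *Ubash3a*, a T cell phosphatase of the TULA family, fell by 1.56 (adjusted p = 0.00632) and was called after quantile normalization too (-1.04, adjusted p = 0.0352). The cofilin phosphatase *Ssh1* (-1.30), *Cdc14b* (-1.26) and *Cdc14a* (-1.09) were not called after quantile normalization. Of 30 ligands and partners of receptor PTPs, 21 were dim in both groups and 1 fell. That gene was *Lgals1*, whose product galectin-1 binds glycans of CD45 and other receptors. It read 15.39, 15.13 and 15.93 in controls and 11.58, 12.31 and 12.31 in deficient cells, and fell by 3.42 (adjusted p = 0.000511).

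Markers of other cells were read because several PTPs, *Ptpn6* and *Ptprj* among them, are also used by myeloid and B cells. Of 13 myeloid markers, 8 were dim in both groups and 3 fell, namely *Lyz2* (-1.91), *Spi1* (-2.10) and *Fcer1g* (-1.17), and the summed linear signal of the list ran from 167 to 268 in controls and from 123 to 145 in deficient arrays. Of 9 B cell markers, 7 were dim and *Cd79b* fell by 1.81, with sums of 238 to 253 and 151 to 174. *Cd79b* was the brightest of them in controls (mean 7.09) and weighs most in that sum. Of the other B cell markers, *Ms4a1* (0.37) and *Fcer2a* (0.41) lay higher and *Cd22* (-0.72) lower without overlap, with none called. Of 10 markers of CD8 T and NK cells, 5 were dim and *Nkg7* (-2.84), *Ccl5* (-2.29) and *Klrb1c* (-2.0) fell, with sums of 645 to 936 and 507 to 661. The myeloid and B cell sums did not overlap between groups, the CD8 T and NK sums did, and the 7 falls of these 3 lists were also called after quantile normalization. The CD8 T and NK sum is weighed most by *Cd8b1*, the brightest of that list in controls (mean 8.74), which differed by -0.02. Of 11 endothelial and stromal markers 8 were dim in both groups and *Col1a1* rose by 1.28, to a signal near the array median. The 7 falls went the same way as most called PTP genes. The median differences of the lists, with the dim genes included, were -0.09 (myeloid), 0.00 (B cell), -0.09 (CD8 T and NK) and 0.27 (endothelium and stroma). The part of such cells in the differences of the PTP genes was not tested.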

How the data were processed

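RNA of 3 control and 3 Rbx1&Sag-deficient pools was amplified with a pico kit and hybridised to Clariom S mouse arrays. The authors deposited log2 signals per probe set, made with Affymetrix Expression Console 1.4 according to the submitters' processing notes; which summarization algorithm, annotation or genome build lay behind them is not given in the sources used here, and no detection calls were used. The number of arrays limits the precision. Of 22206 probe sets, 19572 carried 1 gene symbol and 2634 none in the platform annotation. Where probe sets shared a symbol, only that with the greatest average signal across arrays was used, leaving 19505 genes. No further normalization was applied.

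Groups were compared with limma 3.58.1 in R 4.3.3 (lmFit and eBayes, two-sided, Benjamini-Hochberg adjustment over all genes, threshold 0.05), with no covariate. The model was tested on simulated data. The study's methods name an unpaired t-test, which was run as an alternative, as were an intensity trend, robust moderation, array weights, median centring, quantile and cyclic loess normalization, centring on genes above the median signal, a filter on dim genes, all probe sets, replicate number as a block, and leaving out each array. The genes and gene lists, and the centring on brighter genes, were chosen with earlier results of these data known. Values of every array are given for PTP genes past the threshold, those without overlap and a difference of at least 1, and the 5 with the highest mean. *Ptprr*, *Acp1* and some genes of other lists were added after their values were seen. Of each other list up to 4 genes with the smallest p are named, plus those a count of 5 or fewer refers to. Promoter windows and chromosomes come from RefSeq (GRCm38.p6), matched by symbol for 33 of the 40 genes.

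The labels and the methods name different kits for CD4 enrichment before the sort.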

Additional observations from a re-analysis of the deposited data

How the results depend on the processing

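With 12 genes lower and 2 higher in the deposited values, the counts lower became 5 with quantile normalization, 5 with cyclic loess and 7 when arrays were centred on the brighter genes, with 1 by the methods' t-test after Benjamini-Hochberg adjustment. Over all genes 1851 were lower in the deposited values, and 733, 876, 910 and 23 in these settings, in that order. The counts higher became 11 after centring on the brighter genes, a scaling that called 6966 of all genes higher, and 0 by the methods' t-test, which gave 19 PTP genes an unadjusted p below 0.05. Leaving out 1 array gave 5 to 10 lower and 0 to 2 higher. Without control replicate 1, 2 or 3 the counts were 6 and 0, 5 and 1, and 5 and 0, and without deficient replicate 1, 9 and 1. Over all genes the same leave-outs called 814 and 122, 544 and 77, 605 and 76, and 1248 and 286. The deposited values with all arrays called 1851 and 527, so these leave-outs lost calls over all genes too. Without deficient replicate 2 the PTP counts were 10 and 2, while those over all genes were larger, 2611 and 1012. An intensity trend, robust moderation, array weights, median centring, the dim gene filter and all probe sets gave 11 to 13 lower and 2 to 3 higher. Of all genes tested, these settings called 1720 to 2502 lower and 279 to 750 higher. Median centring moved the median of all genes to -0.14. The cause of these differences was not tested.

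Among the 22 PTP genes brighter than the median, 6 uncalled genes turned positive after quantile, loess and brighter-gene scaling. In that order, the differences were 0.37, 0.40 and 0.52 for *Ptpn18*, 0.50, 0.43 and 0.48 for *Ptpn4*, and 0.07, 0.03 and 0.08 for *Ptpn9*. They were 0.08, 0.10 and 0.18 for *Ptpra*, 0.01, 0.10 and 0.56 for *Ptprc*, and 0.51, 0.47 and 0.52 for *Ptpre*. Leaving out 1 array gave -0.44 to 0.19 for *Ptpn18*, -0.31 to 0.18 for *Ptpn4*, -0.08 to 0.04 for *Ptprc* and -0.23 to 0.02 for *Ptpre*. None of the 14 called genes changed direction under the alternatives run.

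The replicate block gave 10 lower and 2 higher, with *Ptp4a2* (adjusted p = 0.0544) and *Ptpn6* (adjusted p = 0.0538) lost. Over all genes it called 2010 lower and 534 higher. Deviations of same-numbered arrays correlated at 0.009, 0.109 and 0.021, and control replicate 1 correlated best with deficient replicate 3 (0.111), so the numbers were not taken to pair the samples.

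At 3 arrays a group, and with no detection calls, differences of dim genes were not resolved.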
